A study of Mus musculus with 4 samples.

Results

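The nuclear genes for oxidative phosphorylation were examined for open chromatin at their promoters in mouse embryonic stem cells (ESCs). Members were the autosomal protein-coding genes of the GENCODE mouse annotation (release 21) whose symbols start with Nduf, Uqcr, Cox4 to Cox8 or Atp5, or are Sdha to Sdhd. This rule gave 91 gene models with 90 symbols, out of 20807 autosomal protein-coding genes, because Atp5o has 2 models. Another 3 coding genes with such symbols, Ndufa1, Ndufb11 and Cox7b, lie on the X chromosome and were left out. By symbol, 44 members belong to complex I, 4 to complex II, 8 to complex III, 17 to complex IV and 18 to complex V. Of the members, 8 were taken as tissue-restricted (Cox4i2, Cox6a2, Cox6b2, Cox7a1, Cox7b2, Cox8b, Cox8c and Ndufa4l2) from what is known of their expression. All the other 83 are called widely used here, without a check of their expression.

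Oxidative phosphorylation takes place in the inner mitochondrial membrane. Complexes I and II pass electrons from NADH and succinate to ubiquinone, complex III passes them on to cytochrome c, complex IV hands them to oxygen, and complex V uses the resulting proton gradient to make ATP. Most subunits are encoded in the nucleus and are needed in nearly every cell. Several subunits of complex IV also exist as isoforms used by heart and skeletal muscle, lung or testis. NRF1, the ETS factor GABP and YY1 are well-known activators of genes of this pathway.

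The samples were 4 ATAC-seq libraries of E14 cells, a mouse ESC line grown in serum with LIF. In ATAC-seq a transposase cuts open chromatin and adds sequencing adapters, and a peak is an interval where such cuts pile up. Of the libraries, shGFP is a single sample whose lentiviral hairpin targets GFP, and the 3 shLuc replicates carry one that targets luciferase. All cells were selected with puromycin at 2 µg/ml for 2 days, kept for 2 further days, and about 50000 cells went into each library. Neither target is a mouse gene, so both hairpins are controls, and the labels do not say whether the shLuc replicates were separate cultures.

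Each library is represented by a list of peak positions without heights or scores. The lists hold 41943 peaks in shGFP and 17860, 41401 and 31585 peaks in the 3 shLuc replicates, and the sequencing depth behind them is unknown. A gene was counted as having a promoter peak when a peak came within 1 kb of the start of any of its transcripts. "No peak" therefore means no listed peak, since a list drawn from fewer reads holds fewer peaks. As a check of the cell type, 5 of 10 ESC marker genes had no promoter peak in any library (Pou5f1, Nanog, Sox2, Dppa5a and Tdgf1), while Zfp42 and Tfcp2l1 had one in all 4. Of markers of other cells, 3 of 6 genes of heart and skeletal muscle, 3 of 3 of fibroblasts, 3 of 5 of endoderm and 2 of 3 of testis had a promoter peak in at least 1 library. Of all coding genes, 34.0% had no promoter peak in any library. These marker counts thus do not set ESCs apart from other cells.

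Promoters of the members that the results turn on are printed here so that isoforms can be read side by side. Each runs 5′ to 3′ from 250 bases before to 50 bases after the RefSeq gene start (GRCm38.p6), and the RefSeq table held promoters for 73 of the 90 symbols. Capitals mark motif letters found on either strand. The motifs searched were GCGCATGCG as a core of the NRF1 motif and CCGGAAG as that of ETS factors. For YY1 the core was ATGGCG, and for the TATA box it was TATAAA. The first set pairs tissue-restricted subunits of complex IV with widely used ones. Cox6b2 was added after its values were seen, and Cox6a1 is shown although the promoter of its partner Cox6a2 is not.
Cox7a1 (chr7:30183921-30184220, plus strand): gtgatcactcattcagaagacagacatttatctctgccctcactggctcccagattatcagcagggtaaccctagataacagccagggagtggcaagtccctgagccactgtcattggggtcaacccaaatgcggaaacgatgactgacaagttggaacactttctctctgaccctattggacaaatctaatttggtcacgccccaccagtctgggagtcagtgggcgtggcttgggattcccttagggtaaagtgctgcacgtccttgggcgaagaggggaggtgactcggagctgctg
Cox7a2 (chr9:79759804-79760103, minus strand): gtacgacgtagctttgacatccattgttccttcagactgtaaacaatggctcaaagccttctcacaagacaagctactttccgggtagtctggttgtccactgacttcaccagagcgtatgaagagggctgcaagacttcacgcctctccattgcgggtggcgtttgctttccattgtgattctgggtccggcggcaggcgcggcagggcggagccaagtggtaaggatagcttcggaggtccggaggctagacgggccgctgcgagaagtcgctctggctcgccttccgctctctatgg
Cox8b (chr7:140900397-140900696, minus strand): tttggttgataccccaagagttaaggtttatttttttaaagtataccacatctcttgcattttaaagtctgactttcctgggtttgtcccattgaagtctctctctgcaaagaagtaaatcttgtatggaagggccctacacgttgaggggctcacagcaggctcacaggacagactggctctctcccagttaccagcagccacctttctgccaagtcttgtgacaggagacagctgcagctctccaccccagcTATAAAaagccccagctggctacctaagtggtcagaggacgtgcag
Cox8a (chr19:7217567-7217866, minus strand): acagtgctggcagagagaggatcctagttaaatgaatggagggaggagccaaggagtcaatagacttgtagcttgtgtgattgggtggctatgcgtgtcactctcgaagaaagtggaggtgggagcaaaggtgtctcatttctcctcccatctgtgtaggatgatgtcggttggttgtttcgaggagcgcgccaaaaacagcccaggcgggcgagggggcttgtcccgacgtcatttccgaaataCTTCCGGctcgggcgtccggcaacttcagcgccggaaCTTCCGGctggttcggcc
Cox6b2 (chr7:4753045-4753344, minus strand): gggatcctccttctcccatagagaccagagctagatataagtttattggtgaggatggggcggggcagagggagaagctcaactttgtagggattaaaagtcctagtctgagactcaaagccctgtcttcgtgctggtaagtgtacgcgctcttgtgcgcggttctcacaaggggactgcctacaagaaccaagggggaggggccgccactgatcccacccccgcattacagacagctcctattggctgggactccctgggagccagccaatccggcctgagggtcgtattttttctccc
Cox6a1 (chr5:115348909-115349208, minus strand): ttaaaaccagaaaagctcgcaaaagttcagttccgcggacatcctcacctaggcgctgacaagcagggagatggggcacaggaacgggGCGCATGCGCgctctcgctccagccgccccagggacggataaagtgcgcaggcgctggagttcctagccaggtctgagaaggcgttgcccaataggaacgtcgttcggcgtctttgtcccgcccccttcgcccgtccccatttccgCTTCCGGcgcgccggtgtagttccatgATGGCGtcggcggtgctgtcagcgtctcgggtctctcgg

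The second set is the member of each complex with the widest mean promoter peak among those listed in all 4 libraries.
Ndufa11 (chr17:56717512-56717811, plus strand): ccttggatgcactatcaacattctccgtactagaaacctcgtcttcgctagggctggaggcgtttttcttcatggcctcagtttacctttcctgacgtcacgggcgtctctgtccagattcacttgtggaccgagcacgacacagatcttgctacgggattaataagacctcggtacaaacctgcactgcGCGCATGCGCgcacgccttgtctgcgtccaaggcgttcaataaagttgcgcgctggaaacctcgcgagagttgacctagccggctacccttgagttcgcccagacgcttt
Sdha (chr13:74350191-74350490, minus strand): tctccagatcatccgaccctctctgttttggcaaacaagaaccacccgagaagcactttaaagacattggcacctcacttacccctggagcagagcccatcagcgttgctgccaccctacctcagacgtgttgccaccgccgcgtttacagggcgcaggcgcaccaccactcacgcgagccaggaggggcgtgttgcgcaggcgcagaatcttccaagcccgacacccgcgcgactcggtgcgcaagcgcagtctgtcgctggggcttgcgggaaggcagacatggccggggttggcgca
Uqcrh (chr4:116075021-116075320, minus strand): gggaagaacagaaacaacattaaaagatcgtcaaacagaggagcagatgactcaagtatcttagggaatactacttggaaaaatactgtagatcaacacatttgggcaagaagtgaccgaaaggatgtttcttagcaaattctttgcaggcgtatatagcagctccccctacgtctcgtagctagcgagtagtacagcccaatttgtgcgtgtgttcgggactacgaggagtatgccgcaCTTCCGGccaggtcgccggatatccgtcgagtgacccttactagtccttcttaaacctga
Cox5a (chr9:57520982-57521281, plus strand): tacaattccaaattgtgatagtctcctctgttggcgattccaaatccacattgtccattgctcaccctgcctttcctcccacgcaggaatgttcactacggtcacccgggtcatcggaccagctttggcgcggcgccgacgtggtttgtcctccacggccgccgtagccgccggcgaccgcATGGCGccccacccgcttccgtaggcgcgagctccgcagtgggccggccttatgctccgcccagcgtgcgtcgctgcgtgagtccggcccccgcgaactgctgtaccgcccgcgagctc
Atp5j (chr16:84835576-84835875, minus strand): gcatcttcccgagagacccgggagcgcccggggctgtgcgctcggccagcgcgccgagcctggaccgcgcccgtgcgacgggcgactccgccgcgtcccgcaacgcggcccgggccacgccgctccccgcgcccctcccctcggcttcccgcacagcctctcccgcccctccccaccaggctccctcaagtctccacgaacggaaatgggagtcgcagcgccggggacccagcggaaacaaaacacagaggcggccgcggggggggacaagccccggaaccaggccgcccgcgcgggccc

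Most members had open promoters in each library. In shGFP, 80 of 91 members (87.9%, Wilson 95% interval 79.6 to 93.1) had a promoter peak, against 61.9% of all coding genes. In shLuc replicate 1, the shortest list, the number was 71 (78.0%, 68.5 to 85.3) against 48.4%. It was 78 (85.7%, 77.1 to 91.5) against 61.5% in replicate 2, and 72 (79.1%, 69.7 to 86.2) against 56.3% in replicate 3. The intervals cover counting over genes only. The shLuc mean was 81.0% ± 4.16 (SD, n = 3), and shGFP lay 6.96 percentage points above it, which is more than the SD. When the 3 longer lists were cut to their widest 17860 peaks, as many as replicate 1 holds, 63.7% of members had a peak in shGFP, 61.5% in shLuc replicate 2 and 68.1% in replicate 3, so that shGFP lay between these 2. Replicate 1 is not changed by this cut. The cut goes by width, and member peaks had a lower median width than those of coding genes in each library. No share of all coding genes is given for the cut lists, so the 2 were not compared at equal length. In the full lists, all coding genes showed a gap between shGFP and shLuc of similar size, 6.53 points with an SD of 6.60. With 1 library against 3, the smallest p an exact permutation test can give is 0.25, so no test was run.

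Across the libraries, 62 members (68.1%) had a promoter peak in all 4, against 44.0% of all coding genes. At the other end, 9 members (9.89%) had a promoter peak in none, against 34.0%. Between these ends, 14 members (15.4%) had one in 3 libraries, 5 (5.49%) in 2 libraries and 1 (1.10%) in a single library. For all coding genes these shares were 12.6%, 4.96% and 4.41%. Of the 14, 8 lacked a peak in shLuc replicate 1 alone, which is 8.79% of all members, against 9.68% of coding genes. Without replicate 1, 70 members had a peak in each of the remaining 3 libraries, a count not given for coding genes.

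**Figure D1:**
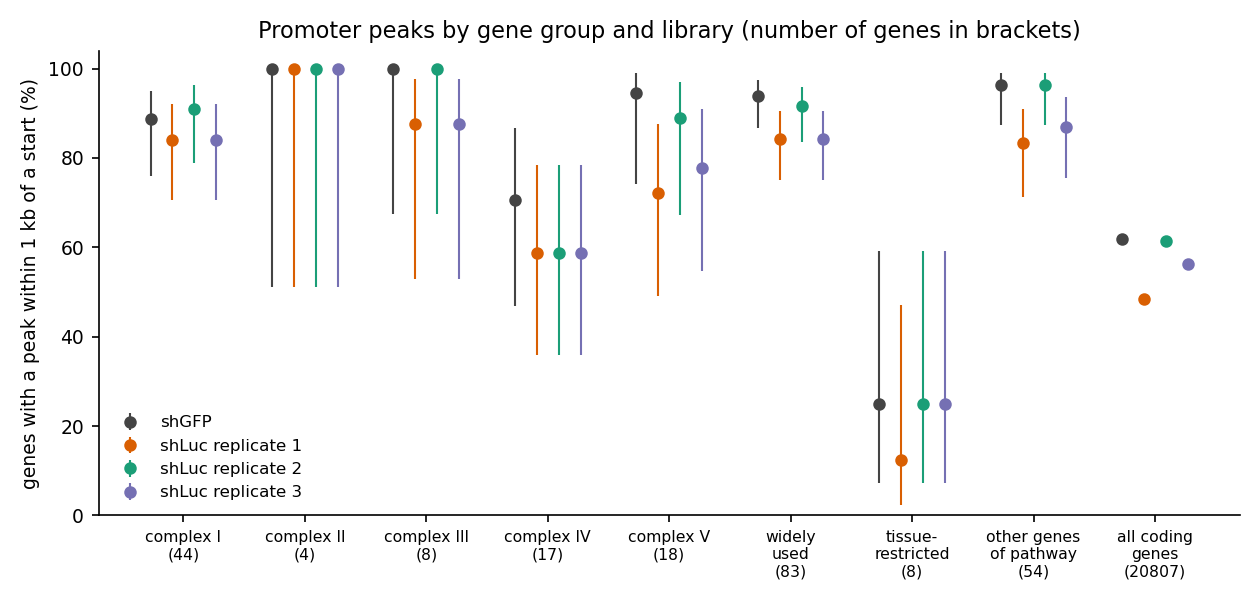
Share of genes with a peak within 1 kb of a transcript start (y axis, percent) for the 5 complexes, widely used and tissue-restricted members, 54 other genes of the pathway and all autosomal coding genes, with 1 point per library. Bars are Wilson 95% intervals over genes. The widely used members lie between 84.3% and 94.0%, and the tissue-restricted members between 12.5% and 25.0%.

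Complex I, which oxidises NADH, had a promoter peak at 39 of 44 members (88.6%) in shGFP. The shLuc mean was 86.4% ± 3.94 (SD, n = 3), and 33 members had a peak in all 4 libraries. Among its 7 nuclear core subunits, which carry the flavin and the iron-sulphur clusters, 6 had a peak in all 4 libraries. The promoter peak of Ndufv1, the subunit that binds NADH, was 701 bp wide in shGFP and 698, 796 and 760 bp in the shLuc replicates. For Ndufv2, its partner, the widths were 1088, 765, 1025 and 1076 bp in the same order. Ndufv2 had the wider peak in each library.

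The peak at Ndufs3 measured 860 bp in shGFP and 735, 840 and 764 bp in shLuc. Ndufs7 had widths of 903, 781, 729 and 626 bp. Ndufs8 was narrower, with 668, 580, 604 and 642 bp. The shortest list had the narrowest peak at Ndufs3 and Ndufs8, and shLuc replicate 3 at Ndufs7.

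Ndufs1, the largest subunit of the peripheral arm of complex I, was the exception. It lies at 63143596 to 63176833 on chromosome 1 (GRCm38, minus strand) and has 13 transcript starts, and its nearest peak lay 3876 to 4043 bp away in the 4 libraries. A start of Eef1b2, a translation elongation factor gene, lies 3 bp from one of these. The CpG ratio around it was 0.824. This ratio compares the observed with the expected number of CpG dinucleotides within 500 bp of the gene's 5′ end. Among coding genes with a ratio of 0.6 or more, 94.9% had a promoter peak in at least 1 library, and among the 72 widely used members with such a ratio, 71 did.

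Of the 29 accessory members of complex I, 20 had a promoter peak in all 4 libraries and 27 in at least 1. The 2 without any were Ndufa4l2, a hypoxia-induced paralogue of Ndufa4, and Ndufb10, a subunit of the membrane arm. At Ndufb10, which has 6 starts, the nearest peak was 2161 bp away in shLuc replicate 2 and 11729 bp or more away in the other 3 libraries. Its CpG ratio was 0.571 and no other coding gene starts within 1 kb of it. Ndufa9 had a peak in shLuc replicates 1 and 2 only (312 and 538 bp). Ndufa7 had one in all 3 shLuc replicates (434, 424 and 318 bp) and none in shGFP.

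The 8 Ndufaf genes, whose products help to assemble complex I and are not part of it, all had a promoter peak in shGFP, and 7 had one in all 4 libraries. Ndufaf3 was the member with a peak in exactly 1 library, 1005 bp wide in shGFP. In the shLuc lists the peak nearest to its starts was 5983 to 6007 bp away.

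Complex II, succinate dehydrogenase, had a promoter peak at all 4 genes in all 4 libraries. Sdha, the flavoprotein that oxidises succinate, had widths of 889 bp in shGFP and 997, 1012 and 824 bp in shLuc. Its iron-sulphur partner Sdhb measured 791, 565, 675 and 576 bp. The membrane anchors Sdhc and Sdhd measured 671, 579, 690 and 784 bp, and 967, 594, 895 and 1003 bp. Sdha was the gene of the 4 whose peak was not narrowest in the shortest list. With 4 genes, the Wilson interval around 100% reaches down to 51.0%.

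Complex III had a promoter peak at all 8 members in shGFP, and at 7 of 8 in all 4 libraries. Uqcr11, a small subunit, was listed in shGFP (488 bp) and shLuc replicate 2 (800 bp) only. Uqcrfs1, the Rieske iron-sulphur protein, measured 1002 bp in shGFP and 503, 689 and 663 bp in shLuc. The core proteins Uqcrc1 and Uqcrc2 measured 777, 744, 782 and 1084 bp, and 1473, 672, 1073 and 1284 bp. The shGFP peak was the widest of the 4 at Uqcrfs1 and Uqcrc2, and shLuc replicate 3 had the widest at Uqcrc1.

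Complex IV, cytochrome c oxidase, had the smallest share of the 5 complexes in each library. In shGFP, 12 of 17 members (70.6%) had a promoter peak, and in each of the 3 shLuc replicates 10 did (58.8%), near the 61.9% and 48.4% to 61.5% of all coding genes. The 5 members of this complex with no peak in any library were all tissue-restricted. Among its 10 widely used members, all had a peak in shGFP and 7 had one in all 4 libraries, with a shLuc mean of 83.3% ± 5.77 (SD, n = 3).

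Cox4i1, the largest of the nuclear subunits, was listed in shGFP (950 bp) and in the shortest list, shLuc replicate 1 (840 bp), and in neither of the others. Cox6c showed the same pattern with narrower peaks of 420 and 262 bp. In shLuc replicates 2 and 3 the nearest peak to Cox4i1 lay 49770 and 41452 bp away. Cox5a, which binds to the matrix side of the enzyme, measured 1258 bp in shGFP and 430, 1140 and 601 bp in shLuc. Cox5b, a zinc-binding subunit, measured 457, 559, 965 and 835 bp. The libraries thus ranked differently at these 2 genes, with shGFP widest at Cox5a and narrowest at Cox5b.

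Complex V, ATP synthase, had a promoter peak at 17 of 18 members (94.4%) in shGFP. The shLuc mean was 79.6% ± 8.49 (SD, n = 3), and 10 members had a peak in all 4 libraries. Of the 5 subunits of the catalytic F1 head, 4 were listed in all 4, and Atp5d was listed in shGFP (618 bp) and shLuc replicate 2 (586 bp). The peak at Atp5a1, the alpha subunit, was 1082 bp wide in shGFP and 877, 958 and 1074 bp in shLuc. At Atp5b, the catalytic beta subunit, it was 589 bp in shGFP and 292, 774 and 629 bp in shLuc. Atp5a1 was wider than Atp5b in each library.

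The 13 other members of complex V had a peak in all 4 libraries in 6 cases and in 3 libraries in another 6. Atp5l had peaks of 1322 bp in shGFP, 1332 bp in shLuc replicate 1 and 763 bp in replicate 3, and none in replicate 2. Atp5g1, Atp5g2 and Atp5g3 all encode subunit c, which forms the membrane ring. Atp5g1 had a peak in all 4 libraries (842, 717, 794 and 629 bp), while Atp5g2 and Atp5g3 lacked one in shLuc replicate 3 alone. The remaining one of the 13 was the second Atp5o model, which has 1 start and its nearest peak 4178 bp or more away. The first Atp5o model had a peak in 3 libraries (985, 812 and 650 bp) and none in shLuc replicate 1.

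Absence from a list did not simply follow its length. Of the 71 members with a promoter peak in the shortest list, 2 had none in shGFP, 3 had none in shLuc replicate 2 and 7 had none in replicate 3. The 3 were Atp5l, Cox4i1 and Cox6c. In all, 9 of 71 (12.7%) were missing from at least 1 longer list, beside 918 of 10068 coding genes (9.12%). Peak calling thresholds were not given in the sources used here, and their part in these gaps was not tested.

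Tissue-restricted isoforms mostly had no promoter peak. Of the 8, 2 had one in shGFP, 1 in shLuc replicate 1, and 2 in each of replicates 2 and 3, and 6 had none in any library. Of all coding genes, 34.0% had none in any library. All 8 had a CpG ratio below 0.6, and 40.1% of coding genes below 0.6 had a promoter peak in at least 1 library. Of the 83 widely used members, 78 (94.0%) had one in shGFP and 61 in all 4 libraries, with a shLuc mean of 86.7% ± 4.17 (SD, n = 3). The 3 widely used members without any were Ndufs1, Ndufb10 and the second Atp5o model.

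Cox7a1, the heart and skeletal muscle form of subunit 7a, had a promoter peak in all 4 libraries. It measured 496 bp in shGFP and 399, 443 and 497 bp in shLuc. Its widely used partner Cox7a2 measured 792 bp in shGFP and 363, 762 and 963 bp in shLuc. The Cox7a1 peak was the narrower of the 2 in 3 libraries and the wider in shLuc replicate 1. Among coding genes with a promoter peak, the width at Cox7a1 stood at the 5.32, 10.2, 4.20 and 7.74 percentile of the 4 libraries, and its mean of 459 bp was the smallest of the 62 members listed in all 4. Of 6 muscle marker genes, Ckm was listed in all 4 libraries, Myh6 in 3 and Myod1 in 1, and Myh7, Actc1 and Tnnt2 in none.

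Cox6b2, the testis form of subunit 6b, showed another picture. Its promoter peak measured 1535 bp in shGFP and 1543 and 1534 bp in shLuc replicates 2 and 3, and in replicate 1 the nearest peak was 12117 bp away. Among coding genes with a promoter peak these widths stood at the 91.3, 92.8 and 94.3 percentile. Its partner Cox6b1 had peaks of 638, 433 and 524 bp in the same 3 libraries and none in replicate 1. Cox6b2 was thus the wider of the pair in each library that listed both. The testis genes Prm1 and Prm2 shared 1 peak of 331 bp in shLuc replicate 1, and Tnp1 had none.

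For the other 6 the nearest peaks were counted from the transcript starts. Cox6a2, the heart and skeletal muscle form of subunit 6a, had a peak 1948 bp away in shGFP and 17906 bp or more away in the others. Cox8b, used by heart, muscle and brown fat, had one 2781 to 2943 bp away in 3 libraries and 8240 bp away in shLuc replicate 1. For Cox7b2, of testis, the distances were 2164 and 2195 bp in shLuc replicate 2 and shGFP and 7771 bp in the other 2. The nearest peak of any library was 11471 bp from Cox4i2, of lung, 13331 bp from Cox8c, of testis, and 5479 bp from Ndufa4l2. Of their widely used partners, Cox6a1, Cox8a and Ndufa4 were listed in all 4 libraries, with 664, 718 and 1150 bp in shGFP, and Cox4i1 in 2.

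**Figure D2:**
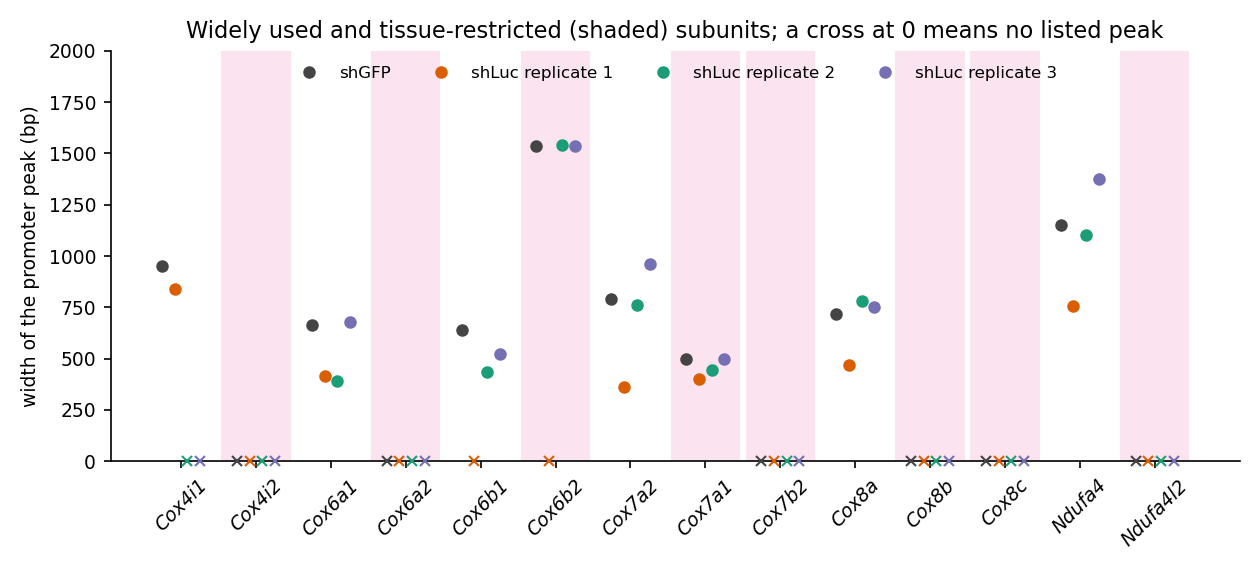
Width of the promoter peak (y axis, bp) of each tissue-restricted member (shaded) beside its widely used partner, with 1 point per library and a cross at 0 where a library lists no peak. Cox7a1 is listed in all 4 libraries at 399 to 497 bp and Cox6b2 in 3 at 1534 to 1543 bp, and the other 6 shaded genes carry crosses only. Cox7b2 has no autosomal partner, and Cox8a serves both Cox8b and Cox8c.

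Promoter peaks of the members were of moderate width. Over the members with a peak, shGFP had a median of 883 bp. The shLuc replicates had 579, 820.5 and 763.5 bp, with a mean of 721 bp ± 126 (SD, n = 3), or 792 bp without replicate 1. Over all coding genes with a promoter peak the median was 971 bp for shGFP, and the shLuc mean was 848 bp ± 123 (SD, n = 3). Among genes listed in all 4 libraries the members had medians of 877, 580, 845 and 770.5 bp and the coding genes 1005, 719, 970 and 930 bp. The members' median was thus the lower in each library, although the lists and the genes are shared and no test was made.

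For 52 of the 62 members listed throughout (83.9%), the narrowest peak was that of shLuc replicate 1, and the same held for 74.3% of coding genes. The order of widths among the 62 was moderately alike between libraries, with Spearman's rho from 0.539 to 0.743 over the 6 pairs. For coding genes rho ran from 0.597 to 0.792 over 9150 genes. These are descriptions across genes of libraries that differ in list length.

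**Figure D3:**
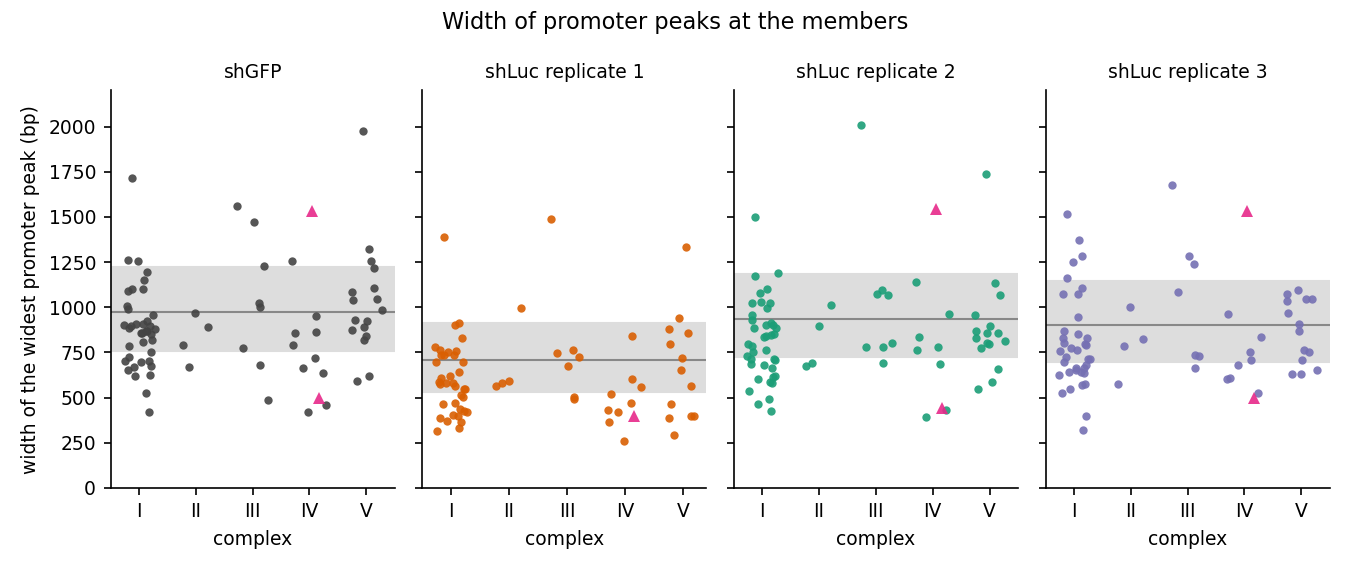
Width of the widest promoter peak (y axis, bp) of each member with a peak, by complex (x axis) and library (panels), with triangles for Cox7a1 and Cox6b2. The grey band spans the middle 50% of all coding genes with a promoter peak and the line is their median (971, 708, 936 and 900 bp). Most members lie below that line, and Uqcrh and Ndufa11 stand at 1390 bp or more in all 4 panels.

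Among the 62 members listed in all 4 libraries, the widest mean peak belonged to Uqcrh, the hinge protein of complex III, with 1563 bp in shGFP and 1489, 2010 and 1675 bp in shLuc. Ndufa11, a membrane-arm subunit of complex I, followed with 1717 bp in shGFP and 1390, 1498 and 1517 bp in shLuc. At both genes the shortest list showed a wide peak as well. Atp5j, a subunit of the stalk of complex V, measured 1975 bp in shGFP and 942, 1737 and 1094 bp in shLuc, so that its libraries were far apart. Uqcrc2 and Ndufa4 came next with means of 1126 and 1096 bp. Ndufa4 is counted in complex I by its symbol, but its product is now known as a subunit of complex IV.

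The narrowest of the same 62 besides Cox7a1 were Ndufaf1, an assembly factor, at a mean of 499.5 bp, and Ndufs5, an accessory subunit, at 507 bp. Of members listed in fewer libraries, Cox6c, Ndufa7 and Ndufa9 had smaller means (341, 392 and 425 bp), and Cox6b2 and Atp5l had means of 1537 and 1139 bp. Ndufs5 measured 420 bp in shGFP and 362, 583 and 662 bp in shLuc. Ndufaf1 measured 620 bp in shGFP and 368, 465 and 545 bp in shLuc. In both cases the shortest list had the narrowest peak.

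Peaks lay over the starts. A transcript start fell inside the peak at 79 of 80 listed members in shGFP and at 69 of 71, 77 of 78 and 72 of 72 in shLuc. The centre of the peak was within 250 bp of a start in 91.0% to 97.2% of listed members. The start nearest to the centre was taken, with a median of 4 starts per member and 3 per coding gene. For coding genes these 2 shares are not given. Counted base by base, a peak covered the annotated 5′ end of 80.7% of the widely used members in shGFP, and of 72.3%, 79.5% and 74.7% in shLuc. For all coding genes the figures were 51.6%, 38.5%, 50.9% and 46.3%. At 1000 bp upstream, 2.41% of the widely used members were covered in each library, and at 1000 bp downstream 3.61% to 6.02%. For coding genes the upstream figures were 2.56% in shGFP and 0.697%, 2.45% and 1.94% in shLuc. Downstream they were 8.30% in shGFP and 2.83%, 7.52% and 6.28% in shLuc.

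**Figure D4:**
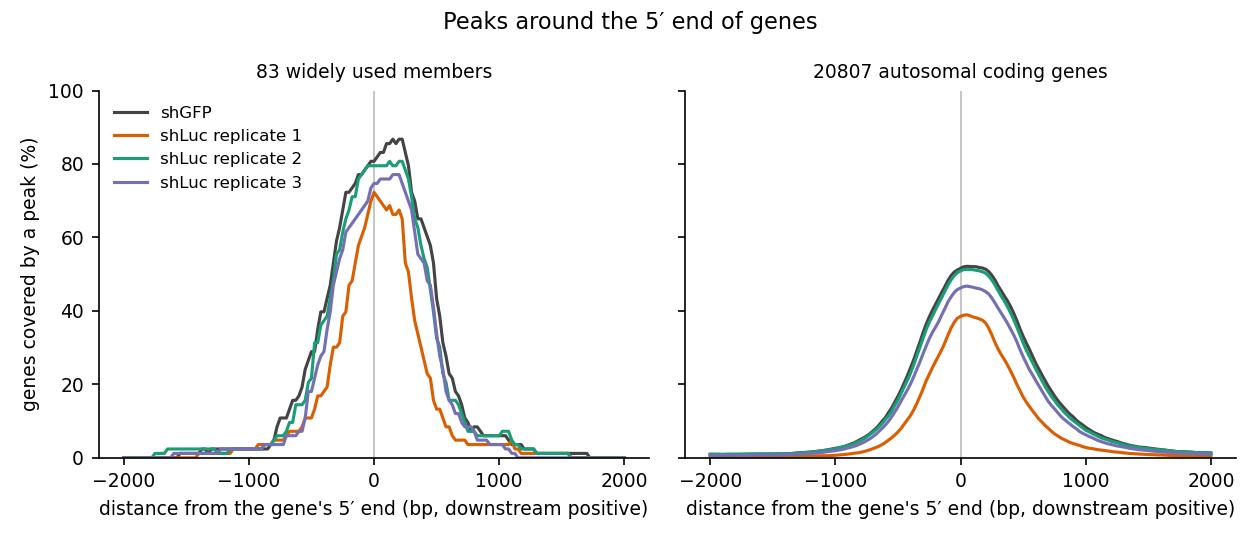
Share of genes covered by a peak (y axis, percent) at each distance from the annotated 5′ end (x axis, bp), for 83 widely used members and for 20807 coding genes, with 1 line per library. Coverage of the members reaches 86.7% in shGFP and 72.3% in shLuc replicate 1, beside 52.1% and 39.0% for coding genes, and at 1000 bp is 2.41% upstream and 3.61% to 6.02% downstream, reaching 0 at 2000 bp on either side. At 1000 bp, coding genes stand at 0.697% to 2.56% upstream and 2.83% to 8.30% downstream.

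Members often share their promoter with a neighbour. Another coding gene had a transcript start within 1 kb at 37 of 91 members (40.7%), compared with 14.9% of all coding genes. For 2 of the 37, the Atp5o models, the other start belongs to the second model of the same symbol. Counting only 5′ ends on opposite strands within 1 kb, in either orientation to each other, the numbers were 33 members (36.3%) and 11.2%. A peak at such a promoter cannot be assigned to either gene. Of the 37, 28 had a promoter peak in all 4 libraries (75.7%), and of the 54 members without such a neighbour 34 did (63.0%). All 8 tissue-restricted members are among the 54. Of the 46 widely used members without such a neighbour, 95.7% had a promoter peak in shGFP, with a shLuc mean of 86.2%. For the 37, all widely used, the figures were 91.9% and 87.4%. Median widths in shGFP were 953.5 bp with a neighbour and 848 bp without.

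Of the 5 members with the widest mean peaks among those listed in all 4 libraries, 4 had such a neighbour. Cox6b2 and Atp5l, wide but not listed in all 4, had none. A start of Atp5j lies 31 bp from a start of Gabpa, which encodes the DNA-binding subunit of GABP, and both genes were assigned the same peak in each library. Uqcrh starts 198 bp from Lrrc41, Ndufa11 82 bp from Vmac, and Ndufa4 312 bp from Phf14. In complex II, Sdhd starts 98 bp from Timm8b, which encodes a protein of mitochondrial import.

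The sequence around the 5′ ends split the members. The median CpG ratio was 0.730 for the 83 widely used members, 0.328 for the 8 tissue-restricted ones (range 0.186 to 0.468) and 0.568 for all coding genes. A ratio of 0.6 or more was found at 72 of 83 widely used members, at 0 of the 8 others and at 47.2% of all coding genes. Of coding genes below 0.6, 40.1% had a promoter peak in at least 1 library and 19.5% in all 4. Of those at 0.6 or above, 94.9% and 71.3% did. The 11 widely used members below 0.6 had a peak in at least 1 library in 9 cases and in all 4 in 6 cases. The ratio was taken at the annotated 5′ end, but peaks were counted at any transcript start. Some of the 9, Cox7a2l among them, had no peak within 1 kb of that 5′ end in any library. The 8 tissue-restricted members, all below 0.6, had a peak in at least 1 library in 2 cases and in all 4 in 1 case.

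The ratio was 0.277 at Cox7a1 and 0.432 at Cox6b2, the tissue-restricted members with a peak, so neither stood above the other 6. Cox7a2l had the lowest ratio of all members, 0.136, and was listed in all 4 libraries (861, 602, 688 and 710 bp), although with its annotated 5′ end as the only start it had no promoter peak in any library, so that the ratio and the peaks describe different places.

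Short matches to activator motifs were counted in the RefSeq promoters of 69 widely used members and in 20085 promoters of coding genes, on both strands. GCGCATGCG, a core of the NRF1 motif, was found in 10 of 69 (14.5%) and in 2.37% of all promoters. CCGGAAG, an ETS core, was found in 17 (24.6%) and 11.9%. ATGGCG, a YY1 core, was found in 16 (23.2%) and 11.0%, and the longer AAGATGGCG that contains it in 7 (10.1%) and 1.83%. At least 1 of the 3 short cores was present in 37 of 69 (53.6%) and in 22.2% of all promoters. Each of these cores contains a CpG. A CpG ratio of 0.6 or more was found at 86.7% of widely used members and 47.2% of coding genes. Promoters of like CpG content were not compared, so the part of base composition was not tested. TATAAA was found in 5 (7.25%) and in 12.7%. A match describes letters only and is not evidence of a bound factor.

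By complex, the NRF1 letters were in 4 of 38 promoters of complex I (Ndufa8, Ndufa11, Ndufaf4 and Ndufaf5), 2 of 5 of complex III (Uqcr11 and Uqcrc1), 1 of 8 of complex IV (Cox6a1) and 3 of 15 of complex V (Atp5g2, Atp5k and Atp5l). AAGATGGCG was in 6 promoters of complex I and in Atp5j2. In the printed promoters, Ndufa11 holds the NRF1 letters from 60 bases before its start, and Cox6a1 from 162 before. In both the letters read on the opposite strand as well, since the motif is nearly its own reverse complement. Cox8a holds CCGGAAG on the opposite strand from 5 bases before and again from 32 bases after its start, and Uqcrh from 10 before. Cox7a1, Cox7a2, Cox6b2, Sdha and Atp5j hold none of the letters searched. Of the 4 tissue-restricted members in the table, Cox8b holds TATAAA and Cox7b2 holds that and the YY1 core. At Cox8b the letters begin 4 bases after the RefSeq start, not before it.

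Other nuclear genes of the pathway had shares close to those of the widely used members. Of 54 such genes, 52 (96.3%) had a promoter peak in shGFP and 41 in all 4 libraries, with a shLuc mean of 88.9% ± 6.68 (SD, n = 3). Among the 38 assembly and insertion factors, 29 were listed in all 4. Sdhaf1, which helps to mature the iron-sulphur subunit of complex II, had a peak in shLuc replicate 2 only (1512 bp). Surf1, an assembly factor of complex IV, was listed in shGFP (534 bp) and in shLuc replicate 1 (610 bp).

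Of the 13 nuclear regulators, 10 were listed in all 4 libraries. Nrf1 measured 1607 bp in shGFP and 1109, 1433 and 1209 bp in shLuc, and Yy1 1047, 963, 1003 and 1222 bp. Tfam, which packages mitochondrial DNA, measured 1034, 817, 892 and 821 bp. Ppargc1a, the coactivator known from muscle and brown fat, had no promoter peak in any library, while its relative Ppargc1b was listed in 3. The somatic cytochrome c gene Cycs (888, 681, 1179 and 925 bp) was listed in all 4, and the testis form Cyct in shGFP (551 bp) and shLuc replicate 2 (324 bp).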

How the data were processed

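ATAC-seq peaks of 4 control libraries of E14 ESCs were analysed. The authors deposited 1 list per library with 3 columns, the chromosome, start and end of each peak, and no other value. The submitters' processing notes name bcl2fastq, Bowtie2, MACS2 and mm10. The study's methods, under a heading shared with ChIP-seq, state that ambiguous reads were placed at random among their best positions, that mitochondrial reads were dropped and that concordant pairs were kept. The threshold of the peak caller and any shift of reads are not given in the sources used here. All peaks fitted within the GRCm38 chromosomes.

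Computations used numpy 2.4.6, scipy 1.17.1 and, for plots, matplotlib 3.10.9 under Python 3.11.15. Where several peaks came within 1 kb of a start, the widest gave the width. Shares carry Wilson 95% intervals, and shLuc values the SD of 3 libraries. On simulated data, 2000 of 2000 genes were called correctly. The genes given in full were all tissue-restricted members and their partners, members listed in no library or in 1, the 5 widest and 3 narrowest listed in all 4, and core subunits. Others that are named were chosen after their values were seen, as was the CpG cut-off. Neighbours that encode ribosomal proteins are left unnamed, and the values of 1 core subunit are not reported here. Members and lists were chosen with earlier results of these data known. In addition to 13 alternatives listed at the start, 1 was added later (1 gene model for Atp5o).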

Additional observations from a re-analysis of the deposited data

How the results depend on the processing

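The 9 values for shares, counts and widths were recomputed under 14 alternatives. Of 103 comparisons, 86 moved by less than 1 SD, the confidence interval or 1.5 times, 3 rose further and 14 fell further. Counts were compared as such, also where an alternative left fewer genes, so a count can fall because the set is smaller. Cutting the 3 longer lists to 17860 peaks, by width, gave 63.7% of members in shGFP and 69.2% in shLuc (widely used 68.7% and 74.7%), and 38 members in all 4 libraries. The shLuc mean includes replicate 1, which this leaves whole at 78.0%. The 2 shLuc lists that were cut had a mean of 64.8%. The widest 50% of each list gave 74.7% and 53.1% (widely used 80.7% and 57.4%), 25 members in all 4, 19 in none, and 1 tissue-restricted member, Cox6b2. Starts within 5 kb gave 93.4% in shGFP, 3 members in none and 5 tissue-restricted members, with Cox6a2, Cox7b2 and Cox8b added. The 54 members without a neighbouring coding start gave 76.5% in shLuc and 34 in all 4 (63.0%, against 68.1% of all 91). The 37 others had a shLuc mean of 87.4%. The 54 include all 8 tissue-restricted members, and the 46 widely used ones among them had 86.2%. A single Atp5o model, chosen after seeing the data, changed none of these beyond those limits. Shares of all coding genes under these alternatives are not given here.

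Leaving out each shLuc library in turn gave 78.6% to 82.4% of members (widely used 84.3% to 88.0%), median widths of 671 to 792 bp, 63 to 70 members in all remaining libraries, 9 in none and 2 tissue-restricted members. No paired analysis was possible because shGFP has a single library and no test across samples was made. Without depth or scores, a missing peak cannot be told from one below the threshold.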
